A study of Mus musculus with 74 samples.

Results

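Gene deserts are long stretches of a chromosome that hold no protein-coding gene. Here a desert was an autosomal interval of at least 1 Mb between 2 neighbouring protein-coding genes of the GENCODE M21 annotation on mm10, and the first 6 Mb and last 2 Mb of each chromosome were left out. The rule uses gene positions and no measured value, and it gave 244 deserts, 6 of them shortened by these limits. Cut into windows of 1 kb with at least 50% assembled sequence, the deserts held 439917 of the 2303779 autosomal windows inside the same limits, or 19.1%, and the other 1863862 windows are called the rest. The deserts were 1.01 to 4.67 Mb long, with a median of 1.51 Mb, and 71 reached 2 Mb. They lay on every autosome, from 5 on chromosome 19 to 21 each on chromosomes 1 and 3. They were not empty of annotation, since 210 of them held at least 1 of 805 lincRNA (long intergenic noncoding RNA) genes, 1762 pseudogenes were annotated in them, and 3 intervals counted as deserts because immunoglobulin or T cell receptor segments are not annotated as protein-coding.

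Mammalian gene deserts are rich in A and T, tend to replicate late in S phase and often lie at the nuclear lamina. Some hold distant enhancers of a developmental gene at their edge, and others show little conservation. H3K9me3, the trimethylation of lysine 9 of histone H3, marks heterochromatin, silences many transposable elements and is laid down by the SUV39H and SETDB1 enzymes. In cloned embryos the mark carried in with the donor nucleus is a known barrier to reprogramming.

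H3K9me3 was profiled by ULI-NChIP-seq, an ultra-low-input native ChIP-seq, in the donor cumulus cells (CC) and in cloned embryos from somatic cell nuclear transfer (SCNT). Oocytes and cumulus cells came from superovulated B6D2F1 (BDF1) females of 8 to 10 weeks, and reconstructed oocytes were activated for 6 h in 1 mM SrCl2 with 5 μg/mL cytochalasin B, so all SCNT groups share this treatment. The SCNT groups were 1-cell embryos at 6 and 14 h post activation (hpa), embryos of 2, 4 and 8 cells, morulae, and both lineages of the blastocyst, ICM (the inner cell mass) and TE (the trophectoderm). The comparison group was fertilized zygotes at pronuclear stage 5 (PN5), which per the labels came from C57BL/6 females mated with C57BL/6 males, were collected 20 h after hCG and were grown on to PN5. The study's methods credit the PN5 profiles of fertilized embryos to an earlier publication, so it is uncertain whether these conditions are those of the PN5 libraries, and the type of embryo, the strain and the study cannot be told apart in any comparison with PN5. All groups are mixtures of cells, and fewer marked cells and fewer marked copies per cell cannot be told apart.

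Each group gave 1 peak list, called on pooled replicates after the same number of reads had been drawn for each. No value below therefore has a replicate error, no test across samples could be made, and read depth per library was not part of the lists. Intervals are 95% intervals of counting error only (Wilson for shares), and neighbouring windows are not independent. The lists covered between 123 Mb (2-cell) and 212 Mb (CC) of the autosomes, with 138 Mb in 6-hpa embryos, 207 Mb in 14-hpa embryos and 129 Mb in PN5, so levels between lists move with the length of the list as well as with the deserts. A window counted as marked with at least 50% of its bases in peaks. Windows outside peaks fell short of the peak caller's threshold and were not shown to lack the mark.

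Some desert sequence was covered in all 10 lists. There were 4469 such stretches in 243 of the 244 deserts, with a median length of 446 bases and 3463 kb in all, and 1071 of them reached 1 kb. The 3 longest are shown because peaks covered them in the donor cells, at every embryo stage and in fertilized zygotes. Whether the mark was kept or laid down anew between stages was not tested. Below are the central 200 bases of each on the plus strand of GRCm38 (mm10), at chr12:20230431-20230630 between Gm21863 and Asap2, at chr16:61255542-61255741 between Epha6 and Nsun3, and at chr4:30993516-30993715 between Epha7 and Map3k7, with CpG dinucleotides in capitals.
Gm21863 to Asap2: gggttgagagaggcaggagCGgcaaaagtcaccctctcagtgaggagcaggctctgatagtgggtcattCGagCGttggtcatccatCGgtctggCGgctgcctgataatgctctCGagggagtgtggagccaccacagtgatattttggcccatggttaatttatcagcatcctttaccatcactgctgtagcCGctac
Epha6 to Nsun3: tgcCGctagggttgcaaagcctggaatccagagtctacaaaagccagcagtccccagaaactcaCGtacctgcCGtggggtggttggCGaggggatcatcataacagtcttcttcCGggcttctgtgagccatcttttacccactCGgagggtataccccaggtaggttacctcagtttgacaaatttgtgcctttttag
Epha7 to Map3k7: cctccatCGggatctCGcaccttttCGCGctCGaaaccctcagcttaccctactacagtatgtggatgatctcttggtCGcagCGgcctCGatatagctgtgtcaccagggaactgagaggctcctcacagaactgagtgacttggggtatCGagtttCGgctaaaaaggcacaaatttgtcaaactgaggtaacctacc
The whole stretches measured 7752, 7097 and 6704 bases. They lay 272, 647 and 967 kb from the nearest protein-coding gene, and all were GC-rich for a desert, at 51.2%, 51.6% and 51.6% GC against 38.4% over all desert windows. The Epha6 and Epha7 genes encode ephrin receptors, which guide axons and cell movement. No gene was annotated within the stretches beside those 2 genes, while the one near Asap2, a gene for an Arf GTPase-activating protein, overlapped the processed transcript Gm49692. The stretches by Epha6 and Epha7 were made of sequence with many copies. Counted on both strands over all autosomes, a 50-base word of theirs occurred at a median of 33 and 25 positions, and 29.1% of the words of the former were also in the latter. In the stretch near Asap2, 92.0% of the words occurred once. Where words have many copies, the position of a short read is uncertain, and this was not tested here.

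Other desert sequence was in a peak in CC or in 6-hpa embryos but not in both. The longest CC peak in a desert without a single base covered in 6-hpa embryos measured 8764 bases and lay in the same desert before Asap2, 352 kb from the nearest protein-coding gene. Its fold enrichment in CC was 3.03. Peaks covered 7.91% of it in 14-hpa embryos, none in 2-cell and 4-cell embryos or in PN5, 15.7% in 8-cell embryos, 29.6% in morulae, 45.7% in ICM and 59.1% in TE. The desert peak of highest fold in 6-hpa embryos without a CC peak measured 237 bases, lay 925 kb from a coding gene between Lingo2 and 1700009N14Rik, and had a fold of 24.2. It was covered for 96.6% to 99.2% in 4-cell and 8-cell embryos and in morulae, TE and PN5, and not at all in CC, 14 hpa, 2-cell and ICM. The central 200 bases of both, at chr12:20634164-20634363 and chr4:38525554-38525753, are printed here, again with CpG in capitals.
lost in 6-hpa embryos: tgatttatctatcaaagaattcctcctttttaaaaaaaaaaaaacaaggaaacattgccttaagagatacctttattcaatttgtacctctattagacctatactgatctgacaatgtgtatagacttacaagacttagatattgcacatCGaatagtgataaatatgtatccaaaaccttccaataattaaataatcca
gained in 6-hpa embryos: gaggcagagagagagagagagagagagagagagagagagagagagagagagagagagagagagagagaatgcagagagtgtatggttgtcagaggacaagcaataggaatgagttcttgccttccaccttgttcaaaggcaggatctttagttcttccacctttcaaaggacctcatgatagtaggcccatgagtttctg
The printed bases of the lost peak were AT-rich, at 28% GC, but the whole peak had 38.3% GC, near the 38.4% of all desert windows, and the whole gained peak had 47.3%. Of the 50-base words of the lost peak 20.8% occurred once, with a median of 4 and a maximum of 13265 autosomal positions. The printed bases of the gained peak open with a run of GA repeats, and 1 of its 50-base words occurred at 172060 autosomal positions, although 83.0% of its words occurred once. Lost and gained refer to peak calls alone, and how far read placement or the peak threshold shaped these calls was not tested. Of the 34403 CC peaks centred in deserts, 56.9% had no base covered in 6-hpa embryos, and 36.9% of the 30002 desert peaks in 6-hpa embryos had no base covered in CC. These shares were not computed for peaks outside deserts, so they do not show a trait of deserts.

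The share of desert windows with the mark was highest in the donor cells, fell in 6-hpa embryos, rose again in 14-hpa embryos and was low from the 2-cell to the 8-cell stage. In CC 10.7% of desert windows were marked against 7.42% of the rest and 8.06% of all windows. In 6-hpa embryos the share in deserts was 4.81%, beside 4.90% in the rest and 4.88% in all windows. The 14 hpa list marked 9.15% of desert windows, 7.71% of the rest and 7.98% of all. At the 2-cell stage these shares were 4.18%, 4.66% and 4.57%. The 4-cell list had 4.54% of desert windows, 6.21% of the rest and 5.89% of all, and the 8-cell list 4.8%, 6.35% and 6.06%. The morula was again higher in deserts, with 7.25% against 6.83% in the rest and 6.91% in all. In ICM the shares were 6.26%, 5.59% and 5.72%, and in TE 5.63%, 5.23% and 5.30%. PN5 zygotes had the lowest desert share, 3.76%, with 5.02% in the rest and 4.78% in all.

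The ratio of the desert share to the rest therefore changed side along development. It was 1.45 in CC (95% interval 1.43 to 1.46), 0.981 in 6-hpa embryos (0.967 to 0.995) and 1.19 in 14-hpa embryos (1.18 to 1.20). From the 2-cell to the 8-cell stage it lay below 1, at 0.897 (0.883 to 0.911), 0.730 (0.720 to 0.741) and 0.756 (0.745 to 0.767). It was 1.06 in morulae (1.05 to 1.07), 1.12 in ICM (1.11 to 1.13), 1.08 in TE (1.06 to 1.09) and 0.750 in PN5 (0.738 to 0.762). Single autosomes spread widely around these values. The deserts exceeded the rest on 14 of 19 autosomes in CC, 9 in 6-hpa embryos, 13 in 14-hpa embryos, 2 in 4-cell embryos and 1 in PN5. In CC the ratio ran from 0.350 on chromosome 19 to 4.30 on chromosome 12, where 25.2% of desert windows were marked, and it was 1.26 over the 225 deserts of the other autosomes. In 6-hpa embryos the ratio without chromosome 12 was 0.848. With deserts of at least 2 Mb alone, the ratio was 0.999 in 14-hpa embryos, 0.851 in morulae, 0.997 in ICM and 0.944 in TE. With a −log10 q of at least 2 the 6 hpa ratio was 1.01, and with any covered base counted as a mark it was 1.03.

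Base composition moved with these ratios. Desert windows had 38.4% GC and 5.57 CpG per kb, against 42.8% and 9.22 in the rest, and 40.4% of desert bases were soft-masked as repeats against 31.6%. When the windows of the rest were weighted to the GC of the deserts in steps of 1 percentage point, their marked share was 6.69% in CC, 2.10% in 6-hpa embryos, 5.41% in 14-hpa embryos, 2.14% in 2-cell embryos and 2.49% in PN5. At equal GC the desert share was higher than the rest in all 10 lists, by a ratio of 2.29 in 6-hpa embryos (2.25 to 2.32), 1.95 in 2-cell embryos (1.92 to 1.98), 1.69 in 14-hpa embryos (1.67 to 1.71), 1.68 in morulae (1.66 to 1.70), 1.64 in TE (1.62 to 1.67), 1.61 in CC (1.59 to 1.62), 1.59 in ICM (1.57 to 1.62), 1.56 in 8-cell embryos (1.53 to 1.58), 1.52 in 4-cell embryos (1.5 to 1.54) and 1.51 in PN5 (1.48 to 1.53). This held on 15 of 19 autosomes in CC, 18 in 6-hpa embryos, 16 in 14-hpa embryos and 19 each in 2-cell embryos, in morulae and in TE.

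Much of the rest is gene body, which was marked less than each intergenic class in 7 lists and more than deserts of 2 Mb or more in 4-cell and 8-cell embryos and in PN5. In CC 4.32% of windows touching a protein-coding gene were marked, against 11.9% in intergenic intervals under 0.1 Mb, 10% from 0.1 to 0.5 Mb, 10.6% from 0.5 to 1 Mb, 11.4% in deserts of 1 to 2 Mb and 9.97% in deserts of 2 Mb or more. At the 4-cell stage the intergenic classes ran 7.96%, 9.37%, 8.44%, 5.69% and 3.20% from the shortest to the longest, and gene bodies had 3.95%. Compared with the 896554 intergenic windows outside deserts, the desert share was equal within counting error in CC, with a ratio of 0.998 (0.988 to 1.01), and lower in the other 9 lists, from 0.836 in 14-hpa embryos (0.827 to 0.845) to 0.524 in 4-cell embryos (0.516 to 0.532). With these intergenic windows weighted to desert GC, the ratio was 1.64 in 6-hpa embryos, 1.35 in 2-cell embryos, 1.23 in PN5, 1.20 in 14-hpa embryos, 1.12 in CC and 1.08 in 4-cell embryos. Without the 10 deserts most covered in CC it was 1.33 in 6-hpa embryos, 1.18 in 2-cell embryos, 1.03 in 14-hpa embryos, 0.903 in CC and 0.981 in 4-cell embryos.

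**Figure D1:**
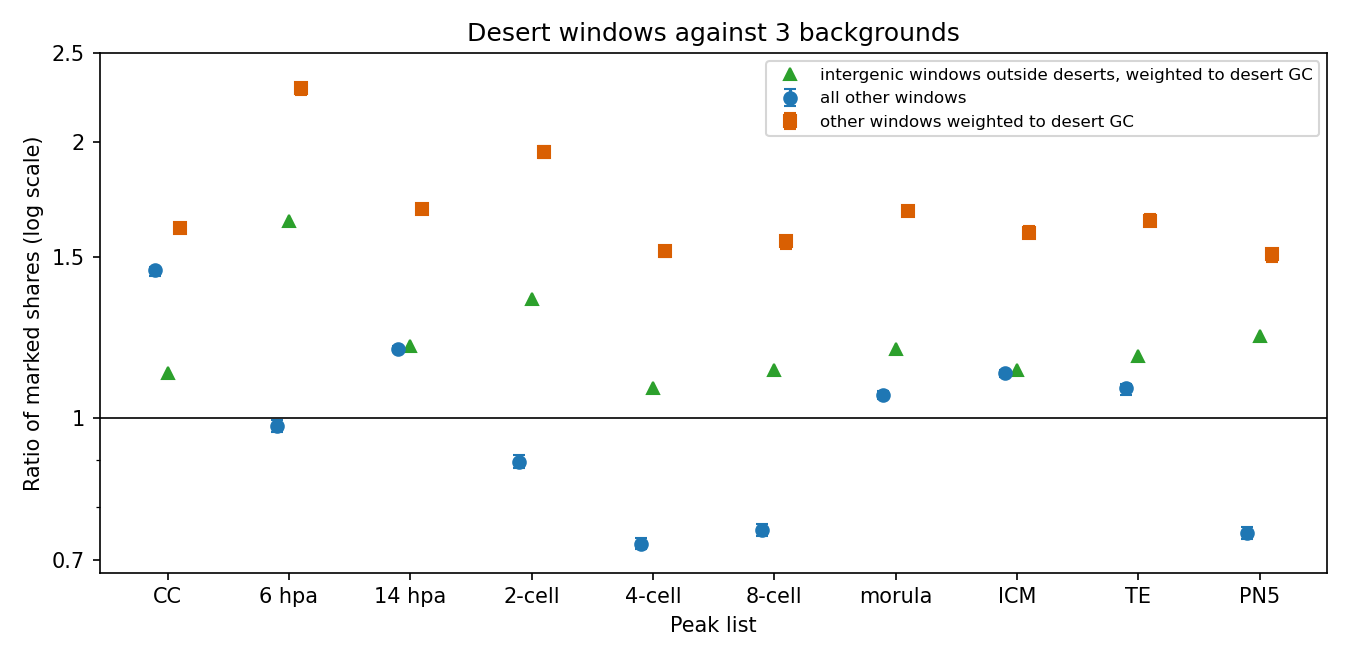
Ratio of the share of marked desert windows to 3 backgrounds in each peak list, on a log axis, with 95% intervals of counting error for circles and squares. Circles compare with all other windows, squares with those windows weighted to desert GC and triangles with intergenic windows outside deserts weighted to desert GC. The circles lie on both sides of 1, from 0.730 in 4-cell embryos to 1.45 in CC, while squares and triangles lie above 1 in every list and are highest in 6-hpa embryos.

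Within the deserts GC-rich windows were marked more often than AT-rich windows. Of all desert windows 64% had under 40% GC, and only 9.42% reached 45%. Among these GC-rich windows 33.3% were marked in CC, 31.0% in 6-hpa embryos, 37.2% in 14-hpa embryos, 28.1% in 2-cell embryos and 18% in PN5, against 7.75%, 10.2%, 10.7%, 9.32% and 9.45% of equally GC-rich windows of the rest. Those GC-rich windows supplied most of the marked desert windows in 4 lists, with 60.8% in 6-hpa embryos, 63.3% in 2-cell embryos, 59.5% in 4-cell embryos and 56.6% in 8-cell embryos. In the other 6 lists they were the minority, from 29.2% in CC to 45.1% in PN5. At the other end, desert windows under 36% GC were marked in 2.70% of cases in CC, 1.12% in 14-hpa embryos and 0.0825% in 6-hpa embryos, and the rest had 4.67%, 1.95% and 0.162%. In the class below 36% GC the deserts were thus lower than the rest in these lists, and from 38% GC upward they were higher in CC, in 6-hpa embryos, in 14-hpa embryos and in PN5. The 10 deserts most covered in CC held 5513 of the 41449 GC-rich desert windows. Without them the marked share of GC-rich desert windows was 25.9% in CC and 26% in 6-hpa embryos, against 11.9% and 14.0% of GC-rich intergenic windows outside deserts.

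**Figure D2:**
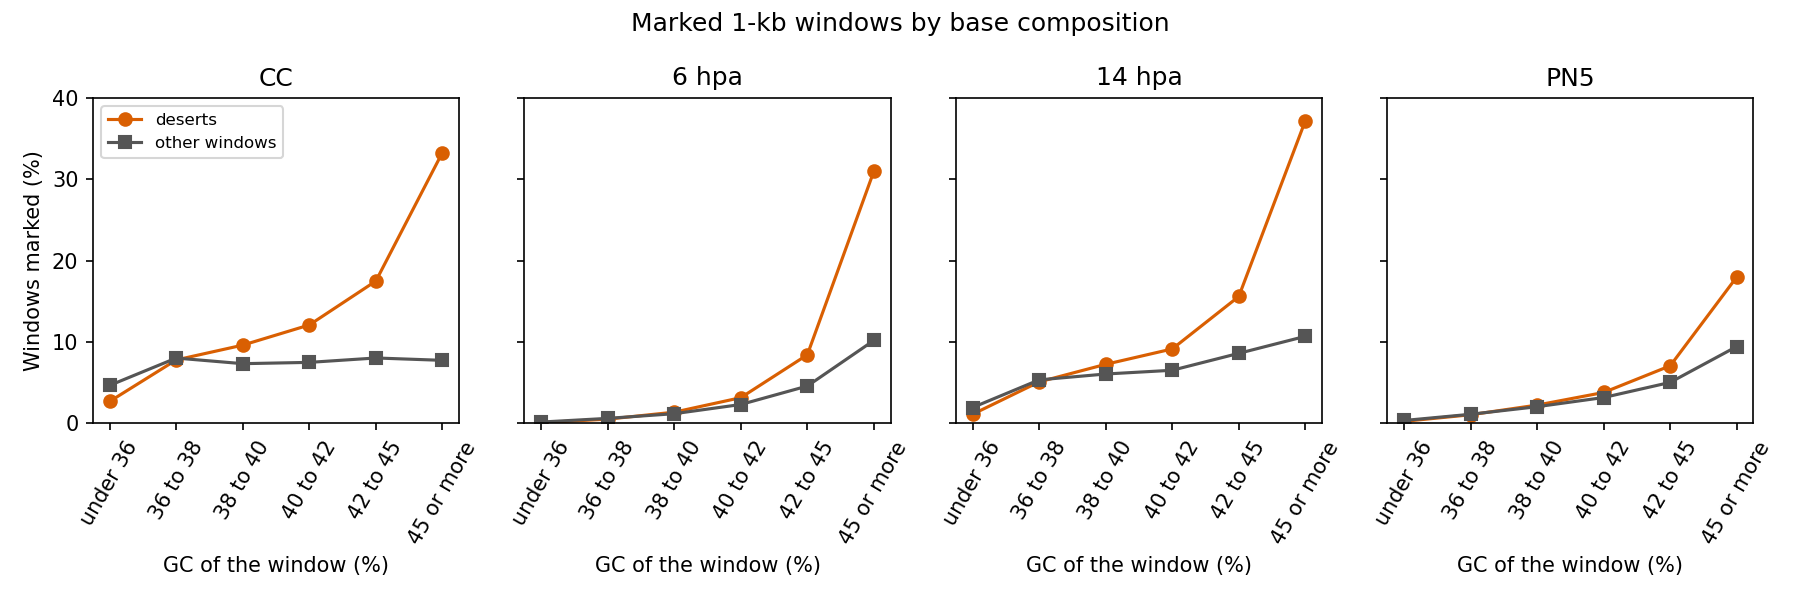
Share of 1-kb windows marked in CC, in 6-hpa embryos, in 14-hpa embryos and in PN5 (y axis, percent) by the GC of the window (x axis, percent) for deserts (circles) and other windows (squares). The curves lie close together from 36% to 38% GC and part above 40%, where desert windows of 45% GC or more reach 33.3% in CC and 37.2% in 14-hpa embryos while the other windows stay at 7.75% and 10.7%.

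Windows with the composition of a CpG island were rare in deserts and were mostly marked. Defined by at least 50% GC and more than 0.6 of the CpG count expected from C and G, there were 348 such windows in 147 deserts, or 0.791 per 1000 windows against 7.82 in the rest. In CC 76.7% of them were marked (72.0 to 80.9), in 6-hpa embryos 85.1% (80.9 to 88.4), in 14-hpa embryos 80.5% (76.0 to 84.3), in 8-cell embryos 55.5% (50.2 to 60.6), in ICM 69.3% (64.2 to 73.9) and in PN5 56.6% (51.4 to 61.7). The same class in the rest, which includes the promoters of protein-coding genes, was marked in 8.02% of windows in CC, 27.5% in 6-hpa embryos and 9.31% in 14-hpa embryos. Repeat content differed between them: 72.7% of the desert windows and 6.62% of the others were soft-masked over at least 50% of their bases. Of the 253 masked desert windows 94.9% were marked in CC, 96.4% in 6-hpa embryos and 75.9% in PN5, and the 965 masked windows of the rest had 85.2%, 89.6% and 71.0%. The 95 desert windows with less masking were marked in 28.4% of cases in CC, 54.7% in 6-hpa embryos, 32.6% in 14-hpa embryos, 6.32% in 4-cell embryos and 3.16% in ICM. For this less masked class the rest had 2.56% in CC, 23.1% in 6-hpa embryos and 3.64% in 14-hpa embryos, so in both kinds of region the share was highest in 6-hpa embryos.

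Repeat content as a whole went with the mark inside deserts too. In CC 5.32% of desert windows with under 25% masked bases were marked, 7.29% from 25 to 50%, 12.9% from 50 to 75% and 27.1% above 75%. In the most masked class the deserts were below the rest in every list, with 27.1% against 29.9% in CC, 10.5% against 12.4% in 6-hpa embryos and 21.1% against 25.3% in ICM. The names of repeat families were not analysed here. Among annotated features, the 4442 desert windows with a pseudogene were marked in 22.5% of cases in CC and 14.7% in 6-hpa embryos, the 31315 windows with a lincRNA gene in 10.3% and 5.19%, and the 398054 windows without any annotated gene in 10.6% and 4.62%. The 821 windows with an immunoglobulin or T cell receptor segment had 23.9% in CC, 14.3% in 6-hpa embryos, 5.85% in 2-cell embryos and 2.56% in ICM. Neighbouring windows can belong to 1 gene, so these shares describe the windows alone.

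The share of marked windows changed less with the distance to a gene in CC than in 4-cell embryos. Windows within 50 kb of the nearest protein-coding gene were marked in 8.95% of cases in CC and those beyond 1000 kb in 9.65%, with 11.5% between 250 and 500 kb. At the 4-cell stage the share fell from 6.31% within 50 kb to 2.85% beyond 1000 kb, in 6-hpa embryos from 5.36% to 3.66%, and in PN5 from 4.26% to 2.80%. GC fell along the same way, from 40.2% within 50 kb to 36.9% beyond 1000 kb, and its part in these shares was not tested.

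Desert peaks were not generally broader or stronger than peaks elsewhere. Their median width was 799 bases in CC against 709 in the rest, 555 against 563 in 6-hpa embryos, and 802 against 883 in 14-hpa embryos. The median fold enrichment given by the authors' peak caller was 2.65 in CC deserts and 2.74 in the rest, 2.77 and 2.72 in 6-hpa embryos, and 3.0 and 3.01 in ICM. Among the lists CC had the most broad desert peaks, with 350 of 34403 over 10 kb. There were 32 of 30002 in 6-hpa embryos, 146 of 32675 in 14-hpa embryos and 9 of 21444 in PN5. CC was also the longest list, and peaks over 10 kb in the rest were not counted, so this tail was not shown to be particular to deserts. The longest, 122879 bases at chr12:23037242-23160120 between Ywhaq, a 14-3-3 protein gene, and Gm10330, held 3 annotated pseudogenes. Peaks covered 64.2% of it in 6-hpa embryos, 79.3% in 14-hpa embryos, 54.4% in 2-cell embryos, 35.2% in ICM and 17.7% in PN5. The longest desert peak of each list lay on chromosome 12, and in 9 lists it was in the deserts from Gm21863 to Asap2 or from Ywhaq to Gm10330. In 6-hpa embryos it measured 27207 bases, lay at chr12:106445044-106472250 between Vrk1, which encodes a nuclear kinase, and 3110018I06Rik, and overlapped the lincRNA 1700121N20Rik. The others measured 33447 bases in 14-hpa embryos, 15728 in 2-cell embryos, 20947 in 4-cell embryos, 18383 in 8-cell embryos, 24179 in morulae, 19479 in ICM, where the peak ran into Gm10330 itself, 20629 in TE and 12308 in PN5.

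The 244 deserts differed among themselves far more than the lists did. Coverage, the percent of assembled bases of a desert under peaks, ran in CC from 1.01% to 87.7%, with a median of 6.48% and quartiles of 3.89% and 12.7%. In 6-hpa embryos it ran from 0.581% to 63.4% with a median of 3.63%, and in 14-hpa embryos from 1.48% to 71.0% with a median of 7.20%. Medians were 3.57% in 2-cell embryos, 3.82% in 4-cell embryos, 4.58% in 8-cell embryos, 7.33% in morulae, 6.49% in ICM, 5.82% in TE and 3.61% in PN5. The upper tail shortened along development. In CC 13 deserts were covered for at least 40%, against 6 in 6-hpa embryos, 8 in 14-hpa embryos, 1 each in 2-cell and 4-cell embryos and none later or in PN5. The 10 most covered deserts of a list held 21.6% of its covered desert bases in CC, 23.0% in 6-hpa embryos, 9.38% in ICM and 14.0% in PN5. In CC, 14 hpa, the morula and TE most deserts lay below the rest although the pooled ratio of marked windows was above 1. In CC 93 of 244 exceeded the 8.01% of bases covered in the rest, in 14-hpa embryos 106 exceeded its 8.17%, in morulae 114 its 7.63% and in TE 119 its 5.87%. ICM was the exception among the lists with a ratio above 1, with 136 deserts over 6.18%. Where the ratio was below 1, the number ran from 43 in 4-cell embryos to 73 in 6-hpa embryos.

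**Figure D3:**
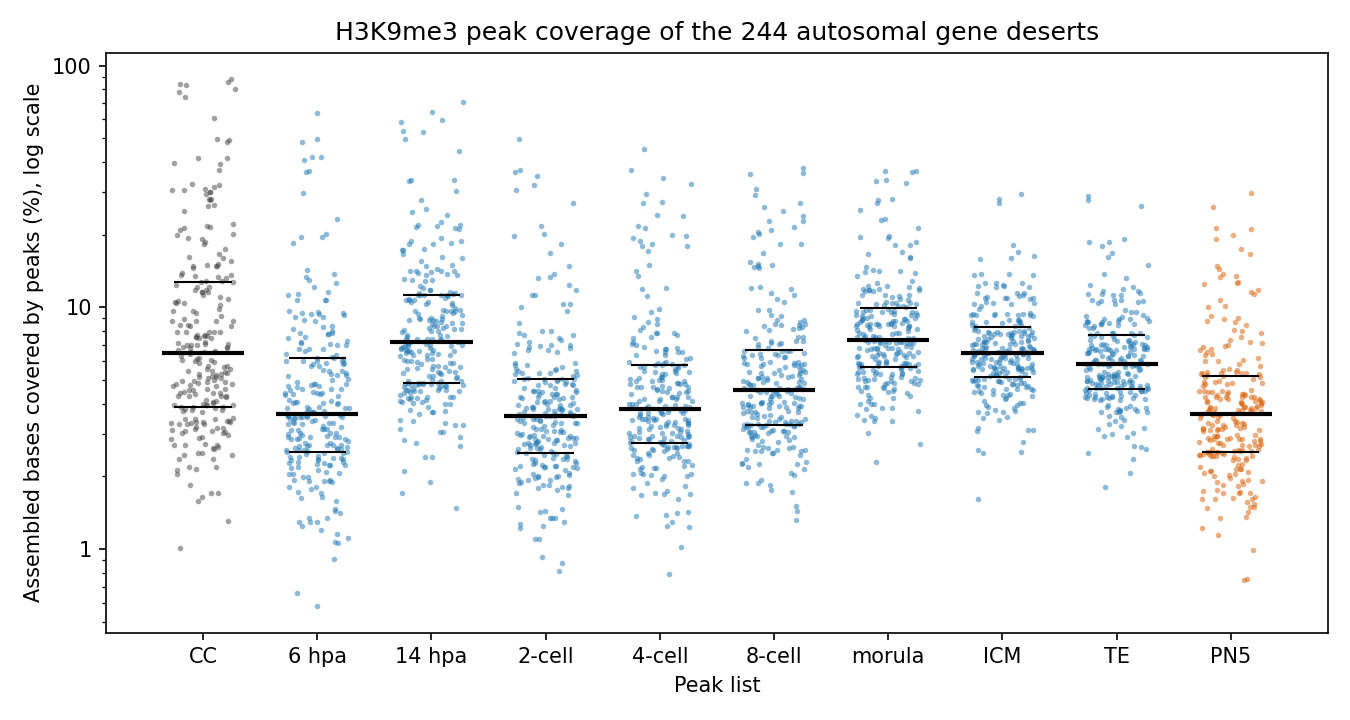
Percent of assembled bases covered by H3K9me3 peaks (log axis) in each of the 244 gene deserts, by peak list, with 1 point per desert, thick lines for medians and thin lines for quartiles. In percentage points the spread is widest in CC, from 1.01% to 87.7% around a median of 6.48%. It is narrow in ICM, TE and PN5, where no desert passes 30%.

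The deserts with the highest CC coverage formed a small group. Between Dok5, which encodes a docking protein of receptor tyrosine kinases, and Cbln4, a synaptic cerebellin gene, peaks covered 87.7% of chr2:170879770-172036232 in CC. That desert had 49.8% in 6-hpa embryos, 64.1% in 14-hpa embryos, 27% in 2-cell embryos, 24% and 23.8% in 4-cell and 8-cell embryos, 27.8% in morulae, 18.1% in ICM, 19.2% in TE and 10.1% in PN5. Its rise from 6 to 14 hpa was among the 3 largest and its excess over PN5 in 14-hpa embryos the largest. The next 4 all lay on chromosome 12, and 3 of them were the deserts around Gm21863, Asap2 and Ywhaq. The interval from 5730507C01Rik to Gm21863 at chr12:18535255-19954504 had 85.5% in CC, 40.7% in 6-hpa embryos and 58.6% in 14-hpa embryos, and it was the most covered desert in ICM with 29.4% and in TE with 28.9%. From Gm21863 to Asap2 at chr12:19954841-20990458 the values were 79.8%, 36.7% and 53.0%. From Ywhaq to Gm10330 at chr12:21417638-23778911 they were 83.9%, 48.2% and 59.4%. In these 3 deserts 31.9%, 27.3% and 57.4% of the 50-base words were repeated within the desert, against a median of 4.70% over all deserts, and how reads with several matches were placed there was not tested.

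The remaining one, between Vrk1 and 3110018I06Rik at chr12:106077427-107488631, had 0.721% repeated words, 21.4% masked bases and 46.0% GC. Its coverage was 83.1% in CC, above the desert from Gm21863 to Asap2, and it was the most covered of all deserts in 7 further lists, with 63.4% in 6-hpa embryos, 71.0% in 14-hpa embryos, 49.7% in 2-cell embryos, 45.3% in 4-cell embryos, 37.7% in 8-cell embryos, 36.8% in morulae and 29.6% in PN5. ICM and TE had 17% and 17.9%. The desert between Tmem132b and Tmem132c, a pair of transmembrane protein genes, at chr5:125792584-127241807 had 73.8% in CC, 41.8% in 6-hpa embryos, 53.4% in 14-hpa embryos, 21.8% in 2-cell embryos, 16.3% in ICM and 6.83% in PN5, and had the second largest excess of 14 hpa over PN5. Over the 13 deserts with at least 40% in CC, the ratio of 6 hpa to CC coverage lay between 0.221 and 0.838, ICM coverage between 4.71% and 29.4% and PN5 coverage between 1.85% and 29.6%. None of these 13 was still at 40% in ICM. The 10 deserts most covered in CC, 5 of them on chromosome 12, made up 3.35% of desert windows and 22.8% of the desert windows marked in CC. Without them the ratio of deserts to the rest was 1.08 in CC, 0.716 in 6-hpa embryos, 0.965 in 14-hpa embryos, 0.955 in morulae and 0.991 in TE. Without the 10 deserts that have at least 10% repeated words it was 1.22 in CC, 0.853 in 6-hpa embryos and 0.992 in morulae.

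At the lower end, the desert between Pkn2, a protein kinase gene, and Lmo4, which encodes a LIM-only transcriptional regulator, at chr3:142882005-144188529 had 1.01% in CC, 0.581% in 6-hpa embryos, 1.71% in 14-hpa embryos, 5.01% in morulae, 5.06% in ICM and 2.89% in PN5. The interval from Robo2, an axon guidance receptor gene, to Lipi at chr16:74411826-75540513 stayed between 0.662% and 2.30% in all 10 lists. Between Sorcs1, a sorting receptor gene, and the insulin gene Ins1 at chr19:50678647-52264296 coverage was 1.59% in CC and highest in morulae, with 3.03%. Between Bckdhb, a gene of branched-chain amino acid breakdown, and Gm11114 at chr9:84124241-85312772 it was 1.65% in CC and 3.50% in morulae. In 8-cell embryos these 4 deserts had 3.04%, 1.76%, 1.51% and 2.26%, in this order. None of them passed 5.06% in any list.

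The fifth of the least covered deserts in CC rose far more. It lies at chr7:135716362-136894613 between Mki67, the gene of the Ki-67 proliferation antigen, and Mgmt, which encodes a DNA repair methyltransferase. Coverage was 1.70% in CC, 2.65% in 6-hpa embryos, 4.78% in 14-hpa embryos, 10% in 2-cell embryos, 21.7% in 4-cell embryos, 30.9% in 8-cell embryos, 25.3% in morulae, 13.8% in ICM, 15.0% in TE and 19.2% in PN5. It had the largest rise of all deserts from CC to the 8-cell stage, 29.2 percentage points, and the largest excess of PN5 over 14 hpa. The desert between Sall1, a zinc finger factor of kidney and limb development, and Tox3, an HMG-box gene, at chr8:89044163-90247039 had 5.55% in CC, 6.97% in 6-hpa embryos, 9.68% in 14-hpa embryos, 19.8% in 4-cell embryos, 21.4% in 8-cell embryos, 10.5% in ICM and 21.3% in PN5. Chosen after these values were seen, the desert between Dhx35, an RNA helicase gene, and Gm826 rose from 4.01% in CC to 20.5% in 8-cell embryos. The one between Camk1g and Plxna2 had 2.86% and 22.7%, but only 100 of its windows lay inside the limits.

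**Figure D4:**
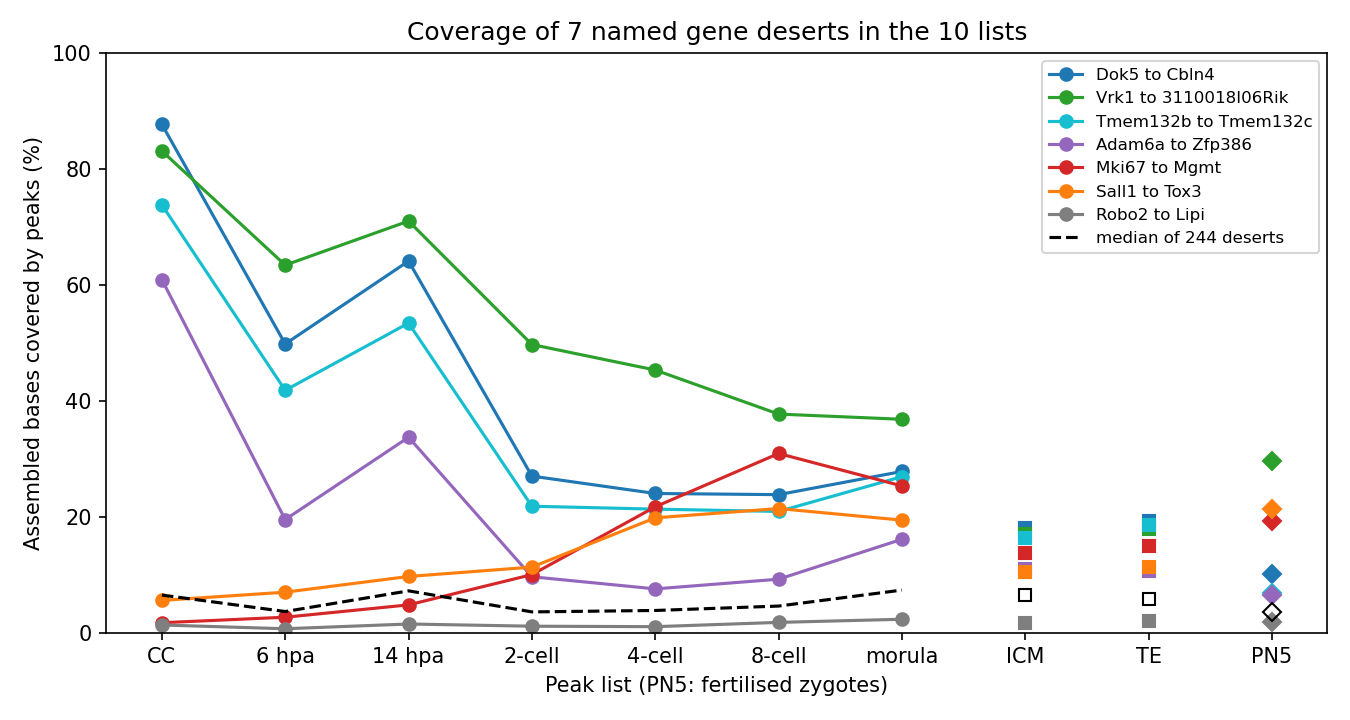
Percent of assembled bases under peaks in 7 named deserts and the median of all 244 in the 10 lists, with circles joined from CC to the morula, squares for ICM and TE and diamonds for PN5. The desert from Dok5 to Cbln4 falls from 87.7% in CC to 18.1% in ICM, while the one from Mki67 to Mgmt climbs from 1.70% in CC to 30.9% in 8-cell embryos.

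Deserts that rose from CC to the 8-cell stage were a minority. At the 8-cell stage 53 of 244 deserts (21.7%) were more covered than in CC, with a median of 7.04% against 3.32%, and their median GC was 40.3% against 38% in the other 191. In 37 deserts PN5 exceeded 14 hpa, and 27 of those also belonged to the 53. By flanking genes, 28 deserts bordered a listed developmental regulator and 69 a gene of adhesion or axon guidance. In 10 deserts a flanking gene had a symbol that starts like those of receptor or zinc finger families, such as Olfr or Zfp. Whether such a gene lies in a cluster was not examined. None of these applied to 140 deserts, and 3 deserts were in more than 1 list. In the developmental group 16 of 28 (57.1%) were more covered in 8-cell embryos than in CC, against 9 of 69 (13.0%) in the adhesion group. Median coverage of the developmental group was 3.97% in CC, 2.69% in 6-hpa embryos, 4.86% in 14-hpa embryos, 6.40% in 8-cell embryos and 9.18% in morulae, beside 6.48%, 3.63%, 7.20%, 4.58% and 7.33% over all deserts. The adhesion group had 5.55% in CC, 3.83% in 8-cell embryos and 6.38% in morulae, and the receptor and zinc finger group 10.3%, 5.98% and 8.56%. The developmental group also had more GC, with a median of 39.7% against 37.6% in the adhesion group, and its part in these medians was not tested.

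The 5 longest deserts were AT-rich, and 3 of them lay above the CC median of 6.48%. The longest, from the adhesion gene Tenm3 to Aga, a lysosomal enzyme gene, at chr8:48843952-53511726, had 19.2% in CC, 6.16% in 6-hpa embryos, 10.4% in 14-hpa embryos, 3.95% in 2-cell embryos and 2.33% in PN5. Between the protocadherin genes Pcdh20 and Pcdh9 at chr14:88471397-93013409 coverage was 4.58% in CC, 2.67% in 6-hpa embryos, 5.84% in 14-hpa embryos and 2.86% in PN5. From Olfm4 to Pcdh17 at chr14:80023140-84443562 these values were 10.2%, 4.08%, 8.57% and 2.86%, and from Cntnap5b to the cadherin gene Cdh20 at chr1:100485943-104768528 they were 9.47%, 4.46%, 9.22% and 4.05%. From Celf4, an RNA-binding protein gene, to Pik3c3, a lipid kinase gene, at chr18:25754158-30272746 they were 4.32%, 2.86%, 4.55% and 1.91%. In all 5 deserts coverage fell from CC to 6 hpa and rose in 14-hpa embryos.

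Intervals with immunoglobulin or T cell receptor segments differed among themselves. The heavy chain interval from Adam6a to Zfp386 at chr12:113546466-116047723, with 197 segments, had 60.9% in CC, 19.5% in 6-hpa embryos, 33.7% in 14-hpa embryos, 9.63% in 2-cell embryos, 10.9% in ICM and 6.54% in PN5. The interval from Olfr1507 to Dad1 at chr14:52495750-54235478, with 201 segments, had 20.1%, 12.1% and 22.0%. Without the 3 intervals of this kind the ratio of deserts to the rest was 1.39 in CC and 0.958 in 6-hpa embryos.

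From the donor cells to 6 hpa marked desert windows fell in proportion by more than the rest, also within every GC class from under 36% to 45% or more. The ratio of 6 hpa to CC was 0.447 in deserts (0.440 to 0.454) and 0.660 in the rest (0.655 to 0.665), and 240 of 244 deserts had lower coverage. The share in the rest weighted to desert GC fell from 6.69% to 2.10%, beside 10.7% to 4.81% in deserts. Pooled over windows in this way, the desert to rest ratio rose from 1.61 to 2.29. Within classes the desert share fell in proportion by more. At 42 to 45% GC it fell from 17.5% to 8.43%, against 8.04% to 4.59% in the rest. At 45% GC or more it went from 33.3% to 31.0%, against a rise from 7.75% to 10.2%. The pooled ratio thus does not show a smaller fall in deserts at a given GC. Of the 47271 desert windows marked in CC, 68.4% (68.0 to 68.9) were unmarked in 6-hpa embryos, against 62.1% in the rest, 66.0% in the rest at the same GC and 63.7% over all windows. Conversely, 29.4% of the desert windows marked in 6-hpa embryos had been unmarked in CC, less than the 42.5% of the rest, the 39.8% of the rest at the same GC and the 40.1% over all windows. With all lists trimmed to the same length the desert ratio was 0.780.

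By 14 hpa the mark was back on many desert windows. The ratio of 14 to 6 hpa was 1.90 in deserts (1.87 to 1.94) and 1.57 in the rest (1.56 to 1.59), coverage was higher in 244 of 244 deserts, and with lists of the same length the desert ratio was 1.21. Pooled over windows, the share in the rest weighted to desert GC rose from 2.10% to 5.41%, beside 4.81% to 9.15% in deserts. This pooled desert to rest ratio fell from 2.29 to 1.69. Within GC classes, however, the desert share rose in proportion by more in every class except 42 to 45% GC. There it rose from 8.43% to 15.6%, near the 4.59% to 8.61% of the rest. At 45% GC or more it rose from 31.0% to 37.2%, against 10.2% to 10.7%. The pooled ratio thus does not show a smaller rise in deserts at a given GC. Of the desert windows marked in CC 51.2% (50.8 to 51.7) were marked in 14-hpa embryos, against 57.2% in the rest and 55.7% over all windows. Among those lost in 6-hpa embryos 36.9% were marked in 14-hpa embryos, against 41.4% in the rest, 40.3% at the same GC and 40.1% over all windows. Seen from 14 hpa, 47.2% of the desert windows newly marked since 6 hpa had been marked in CC, against 41.4% in the rest. Windows marked at 6 hpa, 14 hpa and the 2-cell stage alike made up 18.2% of the CC desert windows, beside 22.2% in the rest and 21.2% over all windows, and 19.1% in the rest at the same GC. Across deserts the CC order was kept, with a Spearman correlation of coverage of 0.950 between CC and 6 hpa and 0.959 between CC and 14 hpa (244 deserts, which share base composition and repeats between lists).

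After the first cleavage marked windows fell in proportion by more in deserts than in the rest, also within every GC class from under 36% to 45% or more. The share in the rest weighted to desert GC fell from 5.41% to 2.14%, beside 9.15% to 4.18% in deserts. Pooled in this way, the desert to rest ratio rose from 1.69 to 1.95. Within classes the desert share fell in proportion by more. At 42 to 45% GC it fell from 15.6% to 6.93%, against 8.61% to 4.79% in the rest. At 45% GC or more it fell from 37.2% to 28.1%, against 10.7% to 9.32%. The pooled ratio thus does not show a smaller fall in deserts at a given GC. The 14 hpa list was also longer, and this change was not computed in lists of the same length. The ratio of 2-cell to 14 hpa was 0.457 (0.449 to 0.464) in deserts and 0.605 (0.6 to 0.610) in the rest, and 62.3% of the desert windows marked in 14-hpa embryos were unmarked in 2-cell embryos, against 55.5% in the rest, 60.2% at the same GC and 57.0% over all windows. Coverage then rose in 167 of 244 deserts in 4-cell embryos, in 226 in 8-cell embryos and in 228 in morulae. The ratio of morula to 8-cell was 1.51 (1.48 to 1.54) in deserts and 1.07 (1.07 to 1.08) in the rest, and 56.4% of the desert windows of the morula were unmarked in 8-cell embryos, against 48.5% in the rest, 52.1% at the same GC and 50.1% over all windows. Of these newly marked desert windows 40.9% had been marked in CC, against 35.6% in the rest. The Spearman correlation of coverage with CC was 0.742 in 2-cell embryos, 0.541 in 8-cell embryos and 0.642 in ICM, and with the GC of the desert it was 0.0264 in CC, 0.135 in 6-hpa embryos, 0.640 in 8-cell embryos and 0.429 in ICM.

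A large part of the donor mark in deserts had no counterpart later. Of the CC desert windows 32.1% (31.7 to 32.6) were marked in no other list, against 24.5% in the rest and 27% at the same GC, and 62.1% were unmarked in 2-cell, 4-cell and 8-cell embryos alike, against 54.0% in the rest. Of the latter 19% were marked in ICM or TE, against 22.0%. Over all 10 lists 79.1% of desert windows were marked in none and 8.98% in 1, close to 79.4% and 8.60% in the rest, while 0.706% were marked in all 10, against 0.537%.

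**Figure D5:**
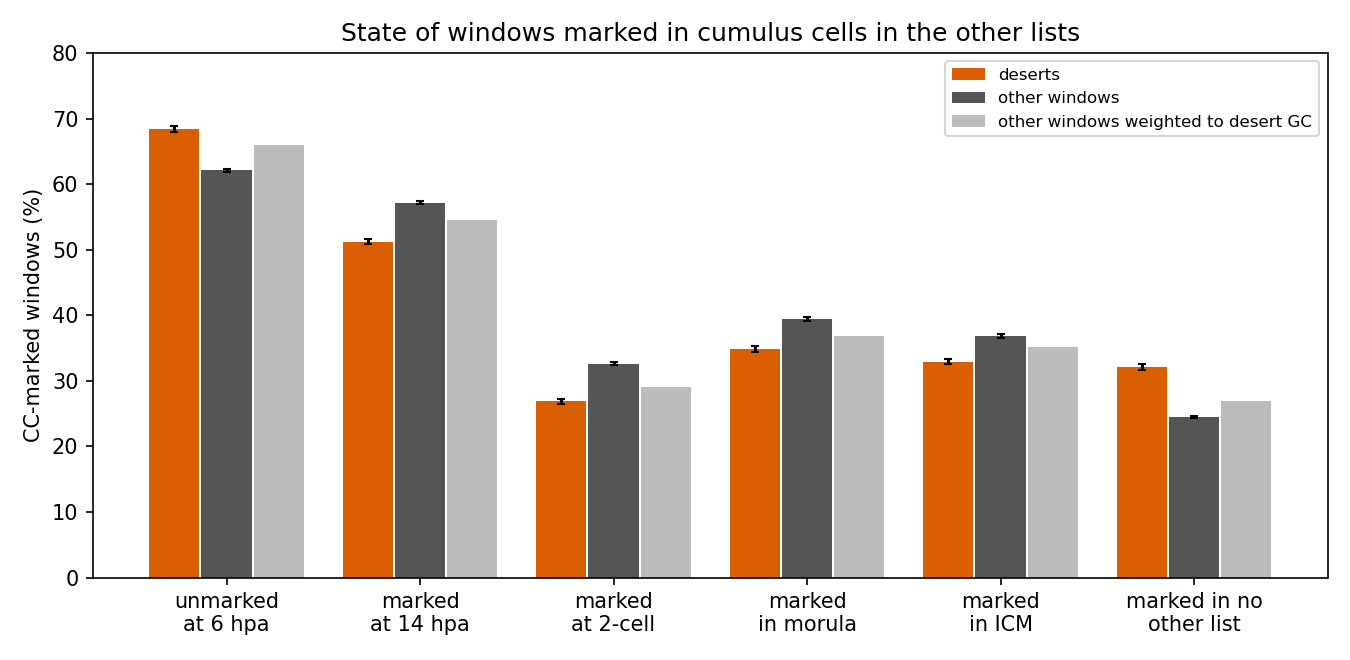
Percent of the 1-kb windows marked in CC that were unmarked in 6-hpa embryos, marked in 4 later lists, or marked in no other list (y axis, bars from 0), for deserts, the other windows and the other windows weighted to desert GC, with Wilson 95% intervals on the first 2 bars. Deserts have the highest share unmarked in 6-hpa embryos, 68.4% against 62.1%, and the highest share marked in no other list, 32.1% against 24.5%.

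ICM and TE were the pair of lists most alike in deserts. Their Jaccard index, the bases common to both divided by the bases in at least 1 of them, was 0.485 in deserts and 0.503 in the rest, rank 1 of the pairs in both. Of the desert windows marked in ICM 63.8% were marked in TE, against 66.1% in the rest and 65.6% over all windows, and 70.9% of those marked in TE had the mark in ICM. TE was lower than ICM in 205 of 244 deserts, with a ratio of marked windows of 0.900 (0.885 to 0.915) against 0.935 in the rest, and the Spearman correlation between them across deserts was 0.967.

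Fertilized PN5 zygotes had fewer marked desert windows than SCNT embryos of 14 hpa, and the gap was wider in deserts than elsewhere. The ratio of 14 hpa to PN5 was 2.43 (2.39 to 2.48) in deserts and 1.54 (1.52 to 1.55) in the rest, with higher coverage in 14-hpa embryos in 207 of 244 deserts. In lists of the same length the desert ratio was 1.49, and among peaks with a −log10 q of at least 2 it was 3.65. Of the desert windows marked in 14-hpa embryos 75.7% were unmarked in PN5, against 69.7% in the rest, 72.3% at the same GC and 71.0% over all windows. The desert marks that PN5 did have overlapped with the other lists more than those elsewhere. Of the 16548 desert windows marked in PN5 59.0% were marked in 14-hpa embryos and 46.5% in CC, against 46.5% and 27.5% in the rest, and 24.5% were marked in no other list, against 37.1%. Across deserts, however, PN5 coverage followed CC loosely, with a Spearman correlation of 0.254, and followed the GC of the desert with 0.518. The lowest of the 10 values of a desert was in PN5 in 99 deserts and the highest in 13, whereas CC was highest in 76, the morula in 60, 14 hpa in 51 and ICM in 31.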

How the data were processed

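ULI-NChIP-seq reads were trimmed by the authors with cutadapt (1.16 in the submitters' processing notes) and aligned to mm10 with BWA mem. The authors merged the alignments of a group with SAMtools, removed duplicates and drew the same number of reads with Picard, and called broad peaks over input with MACS2. The MACS2 threshold and version are not given in the sources used here. The deposited lists give for each peak a fold enrichment over input, which is a ratio, and a −log10 q-value averaged over the peak. The fold was used to describe peaks and −log10 q only to filter or trim lists.

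The 74 libraries fall into 20 groups by the labels, and 10 lists of H3K9me3 peaks were used, 1 for each precipitated group. Peaks of a list did not overlap each other. Genes were taken from GENCODE M21, and sequence, GC, CpG and soft-masking from GRCm38.p6, and no peak ran past the end of its chromosome there. Windows of 1 kb were marked when covered for at least 50%. Weighting to equal GC used steps of 1 percentage point, with values below 30% and above 55% pooled at the ends. Ratios have log-normal intervals and shares Wilson intervals, at 95%, for counting error only. Weighting and intervals were tested on simulated data. No per-sample columns were left unused (0). Calculations used Python 3.11.15, numpy 2.4.6 and pandas 2.3.3.

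Named deserts were the 5 longest, the 5 most and 5 least covered in CC, the most covered in each other list, the 3 largest changes from 6 to 14 hpa and between 14 hpa and PN5 in each direction, and those with immunoglobulin or T cell receptor segments. Among all deserts these rules name, 2 are not reported here. Named peaks were the longest in each list, the 3 longest stretches shared by 10 lists, the 6 hpa peak of highest fold without a CC peak and the longest CC peak lost at 6 hpa. The deserts, these rules and the flanking gene lists were chosen with earlier results of these data known. Alternatives were a stricter −log10 q, lists of equal length, any covered base, deserts of 2 Mb, and the removal of 3 sets of deserts.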

Additional observations from a re-analysis of the deposited data

How the results depend on the processing

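No paired analysis was possible because each peak list came from merged replicates, which also kept any single replicate from being left out. The 16 values were the 10 desert to rest ratios, 3 ratios between lists in desert windows, the 2 shares of CC windows, and the Jaccard index of ICM and TE. The counting intervals are narrow, so most alternatives moved a value past its interval, and only the changes of side count as a change in direction: the desert to rest ratio crossed 1 in 6-hpa embryos, in 14-hpa embryos, in morulae, in ICM and in TE, while CC stayed above 1 and the lists of 2-cell to 8-cell embryos and PN5 below 1 under all 7 alternatives. The fall from CC to 6 hpa, the rise to 14 hpa and the excess of 14 hpa over PN5 kept their direction under all 7. With peaks of a −log10 q of at least 2, the desert to rest ratio was 1.38 in CC, 1.01 in 6-hpa embryos, 1.15 in 14-hpa embryos and 0.710 in PN5. The same choice gave a 6 hpa to CC ratio of 0.420, a 14 hpa to 6 hpa ratio of 2.07, a 14 hpa to PN5 ratio of 3.65, 69.0% of CC windows unmarked in 6-hpa embryos, 51.9% of them marked in 14-hpa embryos and an ICM to TE Jaccard index of 0.515. With all lists trimmed by −log10 q to the length of the shortest, the desert to rest ratio was 1.23 in CC, 1.10 in 14-hpa embryos and 1.07 in morulae. The same choice gave a 6 hpa to CC ratio of 0.780, a 14 hpa to 6 hpa ratio of 1.21, a 14 hpa to PN5 ratio of 1.49, 56.0% of CC windows unmarked in 6-hpa embryos, 50.1% of them marked in 14-hpa embryos and an ICM to TE Jaccard index of 0.534. With any covered base counted as a mark, the desert to rest ratio was 1.43 in CC, 1.03 in 6-hpa embryos, 1.25 in 14-hpa embryos, 0.975 in 2-cell embryos, 0.826 in 4-cell embryos, 0.884 in 8-cell embryos, 1.16 in morulae, 1.14 in ICM, 1.11 in TE and 0.841 in PN5. The same choice gave a 6 hpa to CC ratio of 0.648, a 14 hpa to 6 hpa ratio of 1.39, a 14 hpa to PN5 ratio of 1.87, 55% of CC windows unmarked in 6-hpa embryos and 60.2% of them marked in 14-hpa embryos. With deserts of at least 2 Mb, the desert to rest ratio was 1.27 in CC, 0.792 in 6-hpa embryos, 0.999 in 14-hpa embryos, 0.689 in 2-cell embryos, 0.520 in 4-cell embryos, 0.546 in 8-cell embryos, 0.851 in morulae, 0.997 in ICM, 0.944 in TE and 0.6 in PN5. The same choice gave a 6 hpa to CC ratio of 0.395, a 14 hpa to 6 hpa ratio of 2.02, a 14 hpa to PN5 ratio of 2.68, 71.3% of CC windows unmarked in 6-hpa embryos, 48.7% of them marked in 14-hpa embryos and an ICM to TE Jaccard index of 0.525. Without the immunoglobulin and T cell receptor intervals, the desert to rest ratio was 1.39 in CC, 0.958 in 6-hpa embryos, 1.16 in 14-hpa embryos and 1.05 in morulae. Without the 10 deserts with at least 10% repeated words, an alternative chosen after seeing the data, the desert to rest ratio was 1.22 in CC, 0.853 in 6-hpa embryos, 1.06 in 14-hpa embryos, 0.800 in 2-cell embryos, 0.676 in 4-cell embryos, 0.709 in 8-cell embryos, 0.992 in morulae, 1.05 in ICM, 1.01 in TE and 0.716 in PN5. The same choice gave a 14 hpa to 6 hpa ratio of 1.96, a 14 hpa to PN5 ratio of 2.33, 69.6% of CC windows unmarked in 6-hpa embryos, 50.4% of them marked in 14-hpa embryos and an ICM to TE Jaccard index of 0.477. Without the 10 deserts most covered in CC, also chosen after seeing the data, the desert to rest ratio was 1.08 in CC, 0.716 in 6-hpa embryos, 0.965 in 14-hpa embryos, 0.721 in 2-cell embryos, 0.621 in 4-cell embryos, 0.663 in 8-cell embryos, 0.955 in morulae, 1.04 in ICM, 0.991 in TE and 0.688 in PN5. The same choice gave a 6 hpa to CC ratio of 0.430, a 14 hpa to 6 hpa ratio of 2.10, a 14 hpa to PN5 ratio of 2.22, 72.9% of CC windows unmarked in 6-hpa embryos and 48.2% of them marked in 14-hpa embryos. The cause was not tested. Depth is the same for all lists by the authors' draw of reads, and a window without a peak was not shown to lack the mark.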
